A study of Mus musculus with 98 samples.

Results

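The dual-specificity MAP kinase phosphatases are enzymes that remove phosphate from both the threonine and the tyrosine of activated MAP kinases. Their mRNA was followed here in cultured mouse hippocampal neurons and in mouse hippocampus. The members are 10 genes taken by symbol, Dusp1, Dusp2, Dusp4, Dusp5, Dusp6, Dusp7, Dusp8, Dusp10, Dusp14 and Dusp16, of the 24754 gene symbols present in all 6 count tables. No measured value entered their choice, and all 10 were found in every table. In stimulated neurons Dusp1 stood about 30-fold above the level of unstimulated neurons of the same culture day, and Dusp5, Dusp6, Dusp10 and Dusp14 were also higher in all 4 settings compared. Dusp2, Dusp7 and Dusp16 passed the main test in none of them, though alternative fits called Dusp7 lower in 1 setting. In the main edgeR fits neither the upACSS2 virus nor hAD-tau gave a difference that passed the test in any member tested, in neurons or in mice. Dusp2 was too low to be tested in aged and 10-month mice. DESeq2, the alternative test, called Dusp6 for the virus and Dusp1 for hAD-tau in 1 neuron setting each. Some alternative edgeR fits also called members for the virus or hAD-tau in neurons, Dusp4, Dusp6 and Dusp8 among them.

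MAP kinases carry signals from receptors and from calcium entry to the nucleus, and in neurons the ERK branch is switched on by synaptic activity while the JNK and p38 branches also answer stress. The phosphatases end these signals, and several of them are themselves transcribed in response to the kinases that they switch off, which makes them feedback inhibitors. They differ in where they sit and in which kinase they prefer. Dusp1, Dusp2, Dusp4 and Dusp5 encode nuclear enzymes, of which the Dusp5 product is selective for ERK. Dusp6 and Dusp7 encode cytoplasmic enzymes that act on ERK. Dusp8, Dusp10 and Dusp16 encode enzymes that act mainly on JNK and p38. Dusp14 encodes a small enzyme of the family that lacks the kinase-binding domain of the others.

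RNA sequencing covered 98 libraries in 22 groups. Neurons were cultured from CD1 mouse embryos, and 36 of the libraries come from neurons given a virus on day 5 in vitro for 48 hours. PhP.eB, an adeno-associated virus capsid that enters neurons, carried either the construct named upACSS2, made to raise Acss2, or an empty vector. The Acss2 product turns acetate into acetyl-CoA. After a wash on day 7 the cells received hAD-tau, a human tau preparation, or PBS, and were collected on day 9 or day 21, with 3 libraries in each of the 4 combinations of virus and hAD-tau on each day. A further 3 libraries of each combination on day 21 are labelled stimulated. The stimulating agent and its duration are not given in the sources used here, and the labels of these libraries carry no strain. A separate day 21 culture had no virus, with 4 libraries for hAD-tau and 3 for PBS. All mice were male and received upACSS2 or vector by retro-orbital injection. Aged C57BL6 mice are labelled 22 to 23 months old. They were injected at 21 to 22 months, and whole hippocampus was taken 2 months later, 30 minutes after remote context recall (12 mice for each virus). The labelled age and the labelled times of injection and collection do not match fully. In 10-month C57BL6 mice dorsal hippocampus was taken 2 weeks after injection and 30 minutes after fear conditioning (6 upACSS2 and 5 vector mice). PS19 mice, which express mutant human tau from the mouse prion promoter, were injected at 2.5 months and taken 1 or 6 months later, 30 minutes after contextual recall (5 mice for each virus and time). Their labelled ages were then 3.5 months and 8.5 to 9 months. The PS19 upACSS2 mice at 1 month are labelled whole hippocampus and the other PS19 mice dorsal hippocampus, so that virus and tissue cannot be told apart at 1 month, nor time and tissue in the upACSS2 mice. The study set out to learn what raised ACSS2 does to the neuronal transcriptome.

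The libraries held 5075099 to 39985460 counts. Acss2 was higher with upACSS2 in every neuron setting (log2 fold change 5.21 to 6.48), but not past the threshold in aged mice (0.20, edgeR adjusted p = 0.832), in 10-month mice (0.31, adjusted p = 0.518) or in PS19 mice at 1 month (3.53, adjusted p = 0.371) and 6 months (1.19, adjusted p = 0.373). The treatment field disagrees with the title for the neuron groups vector with hAD-tau and upACSS2 with PBS, for the PS19 upACSS2 group at 1 month and for 1 PS19 vector mouse at 1 month. Groups follow the titles. The cultures held other cells beside neurons. Summed over 10 astrocyte markers, the level was 2370 to 2920 CPM (counts scaled to the size of the library) on day 9, 3740 to 21305 on day 21 and 3137 to 10275 in stimulated neurons. Endothelial markers stayed at or below 1.22 CPM in all virus-treated neurons. In bulk RNA, fewer cells of a type and less RNA per cell cannot be told apart. The ribosomal transcript Rn45s took 0.199% to 11% of the counts of unstimulated neurons. Nothing in the labels says whether replicate neuron libraries came from separate cultures, so the p-values measure only the spread between these libraries.

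The stretches just upstream of 5 members are shown because 4 of them, Dusp1, Dusp5, Dusp6 and Dusp10, were higher with stimulation in all 4 settings, and Dusp8 because it holds the same full element as Dusp1. RefSeq (GRCm38.p6) start sites gave a window for 9 of the 10 members, all but Dusp4, each of 250 bases before the start and cut where annotated exon begins. In the GENCODE M21 annotation of GRCm38 the genes themselves span chr17:26505590-26562128 for Dusp1, chr19:53529109-53542431 for Dusp5, chr10:99263231-99267489 for Dusp6, chr7:142079490-142095843 for Dusp8 and chr1:184013302-184075636 for Dusp10. Sequences run 5′ to 3′ on the strand of the gene and lie outside its exons. Those of Dusp1, Dusp8 and Dusp10 fall in an intron of a longer annotated transcript of the same gene, and those of Dusp5 and Dusp6 are upstream of the gene. Capitals mark matches, on either strand, to TGACG, the core of the cyclic AMP response element (full element TGACGTCA, which contains TGACG on both strands), or to the CArG box, which binds serum response factor and reads CC, then 6 bases that are A or T, then GG. The AP-1 site TGANTCA and the Egr site GCGNGGGCG were also searched and match none of the 5 windows shown.
Dusp1 (chr17:26508520-26508722, minus strand): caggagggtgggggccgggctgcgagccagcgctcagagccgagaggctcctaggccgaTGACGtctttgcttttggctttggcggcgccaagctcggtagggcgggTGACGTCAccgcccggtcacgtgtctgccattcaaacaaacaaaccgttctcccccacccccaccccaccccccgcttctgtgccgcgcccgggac
Dusp5 (chr19:53528895-53529108, plus strand): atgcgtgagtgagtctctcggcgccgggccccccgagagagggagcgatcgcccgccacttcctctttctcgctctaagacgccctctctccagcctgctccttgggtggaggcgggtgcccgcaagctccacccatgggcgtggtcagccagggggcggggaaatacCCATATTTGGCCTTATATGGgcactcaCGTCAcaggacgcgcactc
Dusp6 (chr10:99262981-99263230, plus strand): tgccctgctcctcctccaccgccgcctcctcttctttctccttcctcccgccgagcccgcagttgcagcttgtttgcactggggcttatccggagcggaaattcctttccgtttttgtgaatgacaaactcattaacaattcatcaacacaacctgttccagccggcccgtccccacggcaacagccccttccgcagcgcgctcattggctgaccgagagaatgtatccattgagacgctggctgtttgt
Dusp8 (chr7:142095285-142095534, minus strand): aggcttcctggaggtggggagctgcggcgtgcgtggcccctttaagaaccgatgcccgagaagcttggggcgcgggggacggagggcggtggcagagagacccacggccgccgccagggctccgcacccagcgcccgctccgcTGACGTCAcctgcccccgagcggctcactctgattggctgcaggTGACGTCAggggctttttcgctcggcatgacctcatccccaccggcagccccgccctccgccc
Dusp10 (chr1:184034131-184034380, plus strand): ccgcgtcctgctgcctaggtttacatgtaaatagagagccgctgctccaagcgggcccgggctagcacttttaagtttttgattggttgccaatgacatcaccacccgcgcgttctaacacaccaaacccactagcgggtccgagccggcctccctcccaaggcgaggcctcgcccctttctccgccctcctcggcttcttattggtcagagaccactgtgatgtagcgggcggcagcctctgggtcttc

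The Dusp1 window holds 1 full element at 143 to 136 bases before the start. Dusp8 holds 2, at 107 to 100 and 63 to 56 bases before the start. A full element was present in 1.55% of all 32851 windows, and TGACG on either strand in 17.8%. Among the members TGACG was found in Dusp1, Dusp5, Dusp8 and Dusp16. The Dusp5 window holds 2 adjoining CArG boxes at 82 to 73 and 72 to 63 bases before the start, and 1.47% of all windows hold at least 1. An Egr site was found in the Dusp2 and Dusp16 windows, against 4.7% of all windows. AP-1 sites occur in 6.75% of windows and in no member's window. No searched motif was found in the Dusp6, Dusp7 or Dusp10 window, and that of Dusp14 is almost all exon. A match describes letters in these windows only. Dusp6 and Dusp10 were higher in stimulated neurons and show none of these letters here. Dusp8 has 2 full elements and was called in 1 setting of 4. Any relation between these letters and the response was not tested.

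Per kilobase of exon, unstimulated neurons held more Dusp8 mRNA than that of any other member. Counts are compared between genes here only on the log2 scale of CPM per kilobase, as the median over libraries. On day 9 Dusp8 stood at 5.5 and all 12 libraries lay above every library of Dusp4 (3.65). Dusp4, Dusp7 (3.32), Dusp14 (2.97) and Dusp6 (2.72) followed with overlapping neighbours. Dusp1 (1.06) lay below all of these, and Dusp2 (0.23), Dusp5 (-0.06), Dusp16 (-0.09) and Dusp10 (-0.55) came last. On day 21 the order began Dusp8 (4.71), Dusp4 (3.73), Dusp7 (3.6) and Dusp6 (3.48), and Dusp2 (-1.75) was below every other member in all 12 libraries.

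In stimulated neurons the nuclear phosphatase Dusp1 moved from the sixth place to the first. Its median was 7.11 log2 CPM per kilobase, with all 12 libraries above every library of Dusp6 (6.18), the cytoplasmic ERK phosphatase. Dusp6 in turn lay above Dusp4 (5.10), while Dusp4 and Dusp8 (5.02) overlapped. Dusp2 remained the lowest at -1.50. In mouse hippocampus the first 3 places were Dusp8, Dusp6 and Dusp7, and the last 3 were Dusp16, Dusp10 and Dusp2, in aged, 10-month and PS19 mice alike. The medians in aged mice were 4.92 for Dusp8, 4.48 for Dusp6, 4.0 for Dusp7, 2.94 for Dusp1 and -1.39 for Dusp2. In the culture without virus Dusp1 stood at 2.77, below Dusp8 (4.18) and Dusp6 (3.92).

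**Figure D1:**
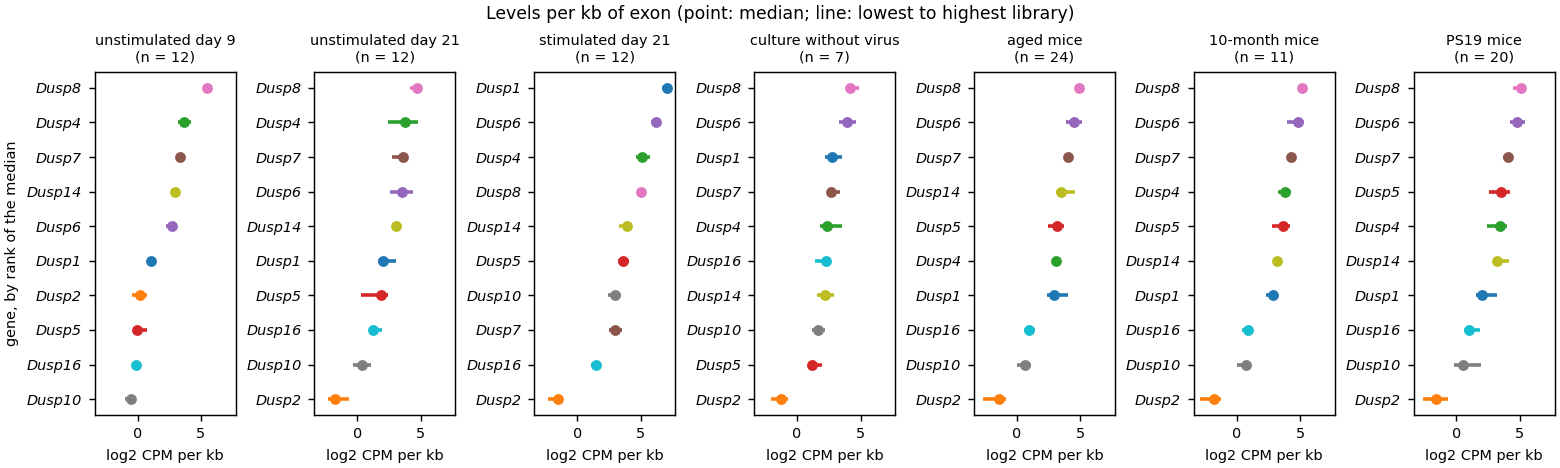
Each panel ranks the 10 Dusp genes in 1 set of libraries by their median level in log2 CPM per kilobase of exon (x axis); points are medians and lines run from the lowest to the highest library. Dusp1 ranks first in stimulated neurons, with a median of 7.11, and Dusp8 ranks first in the other sets.

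Stimulated and unstimulated day 21 neurons were compared in 4 settings, vector or upACSS2 with PBS or hAD-tau, with 3 libraries against 3 in each. The stimulated libraries come from a table of their own, so stimulation and table cannot be told apart. Genes are called higher or lower at an edgeR quasi-likelihood adjusted p under 0.05, adjusted over the 15108 genes tested. In vector neurons with PBS 7 members were higher and none lower, where 7.14% of all genes were called and 4.65% were called higher. The count was 6 with vector and hAD-tau (background 2.83%, higher 2.38%), 5 with upACSS2 and PBS (3.7%, higher 2.37%) and 5 with upACSS2 and hAD-tau (2.35%, higher 1.74%). The members' median log2 fold changes in those 4 settings were 1.23, 1.19, 1.02 and 0.89, beside -0.03, -0.02, -0.01 and -0.01 over all genes.

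Dusp1 had the largest differences among the members in each setting. In unstimulated vector neurons with PBS it measured 3.97, 3.70 and 3.92 log2 CPM, and in stimulated ones 8.84, 8.50 and 8.86. With vector and hAD-tau the unstimulated libraries were at 3.79, 3.32 and 3.74 and the stimulated ones at 8.80, 8.84 and 8.95. All stimulated libraries lay more than 3 log2 units above all unstimulated ones. The log2 fold changes were 4.89 ± 0.22 (SE) and 5.23 ± 0.22, that is 29.7-fold and 37.6-fold, with edgeR adjusted p = 1.74e-11 and 6.82e-12. With upACSS2 the log2 fold changes were 4.91 ± 0.22 in PBS (3.38, 3.61 and 3.88 against 8.54, 8.40 and 8.66 log2 CPM) and 4.69 ± 0.22 in hAD-tau (3.99, 3.72 and 4.77 against 8.88, 8.92 and 8.93). By size of fold change, Dusp1 ranked 16, 8, 13 and 10 among the 15108 genes in vector PBS, vector hAD-tau, upACSS2 PBS and upACSS2 hAD-tau. Dusp1 is a classic immediate-early gene, and it kept its call in each fit that left out 1 library.

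Dusp6, the cytoplasmic ERK phosphatase that is a standard readout of ERK signalling, had the next largest difference with vector, and Dusp10 with upACSS2. Vector neurons with PBS held 5.19, 5.07 and 4.23 log2 CPM unstimulated and 7.69, 7.58 and 7.84 stimulated, a log2 fold change of 2.83 ± 0.20 (adjusted p = 4.71e-09). With vector and hAD-tau the values were 4.97, 4.83 and 5.00 against 7.95, 7.94 and 8.11, a log2 fold change of 3.06 ± 0.20. With upACSS2 and PBS they were 5.63, 5.64 and 6.06 against 7.46, 7.69 and 7.81, which gives 1.87 ± 0.20. With upACSS2 and hAD-tau they were 5.08, 5.16 and 5.68 against 7.98, 7.69 and 7.90, which gives 2.53 ± 0.20. No stimulated library overlapped an unstimulated one. The difference between the responses of upACSS2 and vector neurons in PBS was -0.96 ± 0.27 (unadjusted p = 0.00201, edgeR adjusted p = 0.707), so it did not pass the test across genes. That interaction called 0 of 15108 genes, with 1024 at an unadjusted p under 0.05, and DESeq2 called 0 too. In PBS the Dusp6 means were 4.83 log2 CPM with vector and 5.78 with upACSS2 unstimulated, and 7.70 and 7.65 stimulated. The day 21 virus comparison in PBS, given below, uses the same unstimulated libraries and is not a separate observation. The interaction of stimulation with hAD-tau in vector neurons also called 0 genes, with 261 at an unadjusted p under 0.05 and none of the members among them, and DESeq2 called 0.

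Dusp10, a phosphatase of JNK and p38, was low before stimulation and higher after it in all 4 settings. In vector neurons with PBS it measured 1.74, 2.29 and 2.30 log2 CPM unstimulated and 4.15, 4.83 and 4.38 stimulated (log2 fold change 2.38 ± 0.27, adjusted p = 5.12e-06). In upACSS2 neurons with hAD-tau it measured 1.27, 1.68 and 1.97 against 4.50, 4.79 and 4.37 (2.92 ± 0.28, adjusted p = 6.46e-07). The other 2 settings gave 2.59 ± 0.27 with vector and hAD-tau and 2.63 ± 0.27 with upACSS2 and PBS. The groups did not overlap in any setting, and the fold sizes ran from 5.19 to 7.57.

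Dusp5, the nuclear phosphatase selective for ERK, rose 2.73-fold to 4.79-fold. Vector neurons with PBS held 3.04, 2.24 and 1.62 log2 CPM unstimulated and 4.60, 4.51 and 4.75 stimulated (log2 fold change 2.26 ± 0.28, adjusted p = 1.42e-05). With vector and hAD-tau the values were 3.44, 2.46 and 3.20 against 4.87, 5.13 and 5.07 (1.93 ± 0.27). The unstimulated libraries spread more widely than the stimulated ones, and the groups did not overlap. With upACSS2, where the unstimulated libraries ran from 2.89 to 3.71 log2 CPM in the PBS and hAD-tau groups together, the log2 fold changes were 1.77 ± 0.27 in PBS and 1.45 ± 0.26 in hAD-tau (adjusted p = 0.00231). Dusp5, Dusp6 and Dusp10 kept their calls in each leave-one-out fit of each setting.

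Dusp4, the nuclear enzyme closest in kind to that of Dusp1, passed the test in vector neurons only. With PBS it measured 5.54, 4.46 and 4.05 log2 CPM unstimulated and 6.87, 6.11 and 6.74 stimulated (1.80 ± 0.37, adjusted p = 0.00457), and with hAD-tau 4.95, 3.89 and 5.01 against 6.12, 6.30 and 6.61 (1.65 ± 0.37, adjusted p = 0.0143). With upACSS2 the unstimulated libraries stood at 5.61, 4.80 and 5.86 in PBS and 5.62, 5.35 and 6.23 in hAD-tau, and the stimulated ones at 6.5, 6.42 and 6.69 and at 6.66, 6.36 and 7.20. All stimulated libraries were above the unstimulated ones in each setting, but the log2 fold changes of 1.06 ± 0.36 (adjusted p = 0.119) and 1.00 ± 0.36 (adjusted p = 0.219) missed the threshold. Whether vector and upACSS2 neurons differ in this response was tested in PBS, where neither Dusp4 nor any other gene passed. With upACSS2 and PBS, the fit with the replicate number as a block, whose numbers pair these libraries, called Dusp4 (1.12, adjusted p = 0.0284). With vector and PBS a fit of these 2 groups alone ended the calls of Dusp4 (1.79, adjusted p = 0.0891), Dusp8 (0.64, adjusted p = 0.156) and Dusp14 (0.65, adjusted p = 0.053). The Dusp4 call with vector and hAD-tau was lost without unstimulated replicate 2 or without stimulated replicate 3.

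Dusp14 changed less, by 1.58-fold to 1.98-fold. Its libraries in vector neurons with PBS were at 4.20, 4.46 and 4.32 log2 CPM unstimulated and 5.02, 4.99 and 4.91 stimulated (0.66 ± 0.18, adjusted p = 0.0296). The log2 fold changes were 0.74 ± 0.18 (adjusted p = 0.0277), 0.98 ± 0.18 (0.00226) and 0.78 ± 0.18 (0.022) in vector hAD-tau, upACSS2 PBS and upACSS2 hAD-tau. Leaving out 1 library ended the call in 5, 4, 0 and 5 of the 6 fits of vector PBS, vector hAD-tau, upACSS2 PBS and upACSS2 hAD-tau. Dusp8, a JNK and p38 phosphatase, was called in vector PBS only (7.07, 6.43 and 6.66 against 7.39, 7.35 and 7.41 log2 CPM, 0.65 ± 0.15, adjusted p = 0.0118), and not without unstimulated replicate 2 (0.51, adjusted p = 0.0843) or stimulated replicate 3 (0.62, adjusted p = 0.0515). Unstimulated replicate 2 of vector PBS is also the library with the largest Rn45s share, 11%, whose part in the result was not tested beyond this.

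The remaining 3 members passed in no setting. Dusp7, the second cytoplasmic ERK phosphatase, was the member with the lowest log2 fold change in each of the 4 settings, at -0.39 ± 0.21 and -0.33 ± 0.21 with vector and -0.72 ± 0.21 (adjusted p = 0.0549) and -0.57 ± 0.21 (adjusted p = 0.217) with upACSS2. In upACSS2 neurons with PBS it stood at 5.39, 5.33 and 5.57 log2 CPM unstimulated and 4.62, 4.70 and 4.83 stimulated, with no overlap. The fit with the replicate block called it lower there (-0.72, adjusted p = 0.0456), as did DESeq2 (adjusted p = 0.0198). An edgeR fit of only the groups compared did so too (adjusted p = 0.0107). Dusp16 gave -0.10 ± 0.16, 0.00 ± 0.17, 0.46 ± 0.17 (adjusted p = 0.146) and 0.15 ± 0.17. Dusp2, a nuclear phosphatase best known from immune cells, was near the floor of detection, with -1.30 to 0.38 log2 CPM in unstimulated and -1.27 to -0.15 in stimulated neurons.

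**Figure D2:**
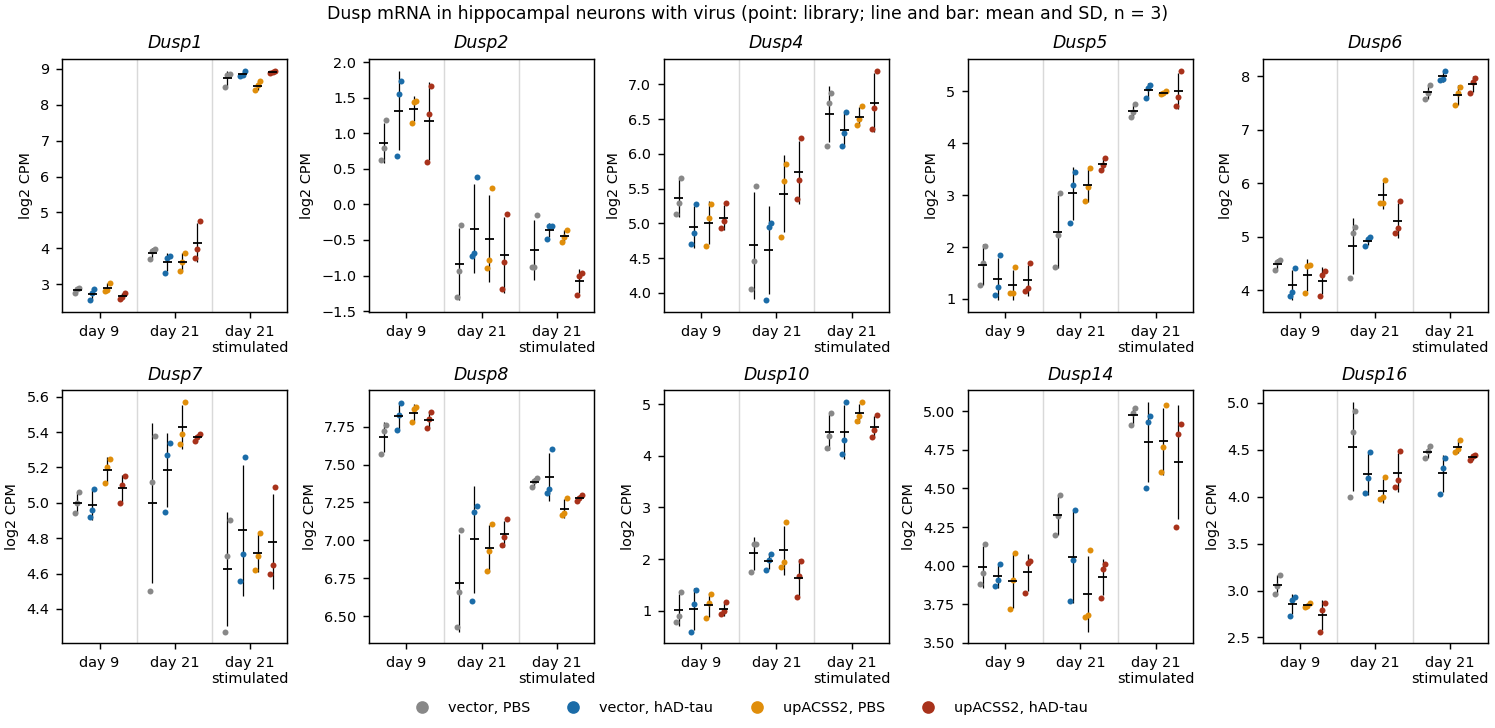
Each panel plots 1 Dusp gene in log2 CPM (y axis) for unstimulated day 9, unstimulated day 21 and stimulated day 21 neurons; points are libraries coloured by virus and hAD-tau, lines and bars the mean and SD of 3. Dusp1, Dusp5, Dusp6 and Dusp10 sit higher in all stimulated libraries than in all unstimulated ones of day 21.

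Genes known to act around these phosphatases were counted in the same fits. Immediate-early genes were higher for 16 of 16 in each setting, with a median log2 fold change of 4.91 in vector PBS. Fosb (7.29), Npas4 (6.57), Egr2 (6.39) and Nr4a2 (6.00), all transcription factors, had the largest values there. Among the Sprouty and Spred list, which holds other feedback inhibitors of the ERK pathway, 5, 4, 3 and 3 of 11 were higher in vector PBS, vector hAD-tau, upACSS2 PBS and upACSS2 hAD-tau. In vector PBS these included Errfi1 (3.48), which restrains EGF receptors, Spry2 (1.21) and Spry1 (1.15). ETS targets of ERK were higher for 4, 2, 1 and 1 of 10, with Maff at 5.38. Spry4 (0.85 in vector PBS) is on both the Sprouty and Spred list and the ETS list and counts in each. Of 7 genes induced by glucocorticoids, which also induce Dusp1, 2 were higher in each setting, and in vector PBS these were the clock gene Per1 (2.24) and the kinase gene Sgk1 (1.45).

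In vector PBS, where 7.14% of all genes were called, 2 of 17 ERK module genes were higher, Braf (0.70) and Sos1 (0.49), and none of the 21 tested JNK and p38 module genes was called. None of the 14 other DUSP genes tested and none of the 5 other MAP kinase phosphatases tested was called in any of the 4 settings. No astrocyte, microglia or oligodendrocyte marker was called in these comparisons. In vector PBS 3 neuronal markers were higher together with the members, Nefl (1.06, adjusted p = 0.00388), Grin2b (0.87, adjusted p = 0.0228) and Map2 (0.41, adjusted p = 0.0252), and their part in the result was not tested. The summed astrocyte markers of vector PBS were 4858 to 21305 CPM unstimulated and 6494 to 10275 CPM stimulated.

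From day 9 to day 21 without stimulation, most genes of these cultures differed. In vector PBS neurons 57.7% of 14863 genes were called, in vector hAD-tau 52.6%, in upACSS2 PBS 54.3% and in upACSS2 hAD-tau 53.6%. The members' counts were 6, 7, 7 and 7 of 10, which is near or little above those shares. Of these 4, 5, 5 and 5 were higher on day 21 (background higher 30.6%, 27.7%, 28.5% and 27.2%) and 2 were lower in each (background lower 27.1%, 24.9%, 25.8% and 26.4%). These comparisons use the same unstimulated day 21 libraries as the stimulation comparisons.

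Dusp16, a JNK and p38 phosphatase, and Dusp1 were higher on day 21 in all 4 settings. Dusp16 measured 3.05, 3.17 and 2.96 log2 CPM on day 9 and 4.0, 4.69 and 4.91 on day 21 in vector PBS. Its log2 fold changes were 1.24 to 1.53 over the settings. Its groups did not overlap in any of them, and adjusted p in vector PBS was 2.23e-07. Dusp1 measured 2.87, 2.77 and 2.89 against 3.97, 3.70 and 3.92 in vector PBS (log2 fold change 1.03 ± 0.20, adjusted p = 0.000212). Its log2 fold changes were 0.93 ± 0.21, 0.74 ± 0.20 and 1.59 ± 0.20 in vector hAD-tau, upACSS2 PBS and upACSS2 hAD-tau. Dusp10 was higher too (1.13 ± 0.26, 0.92 ± 0.27, 1.15 ± 0.26 and 0.66 ± 0.26), although the last call, at adjusted p = 0.0383, was lost in 5 of 6 leave-one-out fits.

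The 2 ERK phosphatases Dusp5 and Dusp6 were called in 3 of the 4 settings. For Dusp5 the log2 fold changes were 0.68 ± 0.32 (adjusted p = 0.0793) in vector PBS and 1.73 ± 0.34, 1.95 ± 0.33 and 2.25 ± 0.33 in the other settings. For Dusp6 they were 0.38 ± 0.22 (adjusted p = 0.136) and 0.84 ± 0.22, 1.48 ± 0.22 and 1.14 ± 0.22. In vector PBS, day 21 replicate 3 was the lowest library for both genes, at 1.62 log2 CPM for Dusp5 and 4.23 for Dusp6. Without it both passed there, Dusp5 at 0.96 (adjusted p = 0.013) and Dusp6 at 0.63 (adjusted p = 0.0091).

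Dusp2 and Dusp8 were lower on day 21 in all settings. Dusp8 measured 7.57, 7.76 and 7.72 log2 CPM on day 9 and 7.07, 6.43 and 6.66 on day 21 in vector PBS (-0.95 ± 0.15, adjusted p = 1.8e-05), and gave -0.78, -0.89 and -0.74 in the other settings, with no overlap. Dusp2 gave -1.86 ± 0.43, -1.77 ± 0.41, -1.84 ± 0.41 and -2.0 ± 0.43. Dusp4 and Dusp7 passed in none. Dusp4 was lower in vector PBS without day 21 replicate 1 (-1.12, adjusted p = 0.00683), and higher in upACSS2 hAD-tau when only those groups were fitted (0.71, adjusted p = 0.0116). Dusp7 was higher in such fits of upACSS2 PBS (0.24, adjusted p = 0.0434) and upACSS2 hAD-tau (0.29, adjusted p = 0.00431). Dusp14 passed in vector PBS (0.33 ± 0.14, adjusted p = 0.05 after rounding), a call lost in 4 of 6 leave-one-out fits. In vector PBS 9 of 10 astrocyte markers, 5 of 5 oligodendrocyte precursor markers and 7 of 7 inhibitory neuron markers were higher on day 21, and 4 of 7 pan-neuron markers were lower. The part of cell composition in the members' differences was not tested.

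Other lists on vector PBS divided both ways. Of 17 ERK module genes 3 were higher and 8 lower, of 21 JNK and p38 module genes 5 were higher and 12 lower, and of 14 other DUSP genes 3 were higher and 1 lower. Glucocorticoid-induced genes were higher for 5 of 7, led by the metallothioneins Mt1 (3.13) and Mt2 (2.77).

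The effect of hAD-tau in neurons was tested by setting, and no member passed in any. In vector neurons on day 9, 4.28% of 14022 genes were called (2.01% higher, 2.27% lower). The lowest adjusted p of a member there was 0.0699, for Dusp4, which measured 5.66, 5.29 and 5.13 log2 CPM with PBS and 4.70, 4.86 and 5.28 with hAD-tau (-0.45 ± 0.14). Dusp6 was at 4.57, 4.53 and 4.38 with PBS and 3.98, 3.89 and 4.42 with hAD-tau (-0.40 ± 0.13, adjusted p = 0.0777). The libraries overlapped for both genes through hAD-tau replicate 3. Without that library Dusp4 (-0.63, adjusted p = 0.00739), Dusp6 (-0.58, adjusted p = 0.00765) and Dusp8 (0.18, adjusted p = 0.0315) passed. Dusp4 also passed without PBS replicate 3 (-0.55, adjusted p = 0.031). In the same comparison 8 of 16 immediate-early genes were lower, among them Fosb (-1.63), Npas4 (-1.34) and Fos (-0.87), and 3 of the 4 oligodendrocyte precursor markers tested were lower.

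In day 9 neurons with upACSS2, 0.349% of genes were called for hAD-tau and the largest member difference was Dusp1 at -0.24 ± 0.11 (adjusted p = 0.515). On day 21 no gene was called for hAD-tau with vector or upACSS2 by edgeR (1361 and 931 of 14639 at an unadjusted p under 0.05, and 3 and 11 by DESeq2). In stimulated neurons hAD-tau called 3.02% of 14939 genes with vector (1.26% higher) and 0.208% with upACSS2. Dusp5 (0.41 ± 0.15) and Dusp6 (0.30 ± 0.11) in vector neurons and Dusp1 (0.39 ± 0.10) in upACSS2 neurons each had adjusted p = 0.12, and in each case all 3 hAD-tau libraries lay above all PBS libraries. DESeq2 called that Dusp1 difference (adjusted p = 0.0186) among 453 of 14939 genes. In upACSS2 neurons 2 members lay lower in all hAD-tau libraries without passing. These were Dusp2 (-1.27 to -0.96 against -0.53 to -0.36 log2 CPM, near the floor) and Dusp16 (4.39 to 4.44 against 4.48 to 4.60). The share of all genes without overlap was not counted.

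The culture without virus gave no call for hAD-tau among 16341 genes by edgeR, with 2272 at an unadjusted p under 0.05, 2 of them members. DESeq2 called 326 genes and no member. Dusp1 measured 3.91, 4.11 and 4.37 log2 CPM with PBS and 4.75, 5.02, 4.50 and 5.28 with hAD-tau, with no overlap (0.77 ± 0.21, adjusted p = 0.307). Dusp14 was lower in all hAD-tau libraries, at 3.30, 3.19 and 3.90 against 2.68, 3.14, 2.93 and 2.52 (-0.68 ± 0.25, adjusted p = 0.324). In that culture summed astrocyte markers were 2366 to 10360 CPM with PBS and 7579 to 14542 with hAD-tau, and pan-neuron markers 2766 to 4482 and 2136 to 2688. Their part in these values was not tested. Simulated 2-fold changes were recovered in 28% of genes in this culture, so that a change of this size could be missed here. In the other fits the share was 79% to 100%, and recovery was not tested for each member. With stimulation, Dusp14 passed at a log2 fold change of 0.98 in upACSS2 PBS. Dusp4 did not pass at 1.00 in upACSS2 hAD-tau. For the virus on day 21 with hAD-tau, Dusp4 did not pass at 1.08. A 2-fold difference of a member could thus be missed in those fits too.

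The upACSS2 virus was compared with vector in the same way. On day 9 with PBS it called 10.2% of all genes (4.9% higher, 5.35% lower) and none of the 10 members. Dusp7 (5.06, 5.00 and 4.94 log2 CPM with vector, 5.25, 5.11 and 5.20 with upACSS2, 0.18 ± 0.06, adjusted p = 0.0641) and Dusp8 (0.15 ± 0.05, adjusted p = 0.0661) were higher in all 3 upACSS2 libraries without passing. Dusp16 was lower in all 3 (2.82 to 2.87 against 2.96 to 3.17 log2 CPM), also without passing. How many of all genes showed no overlap was not counted. Dusp4 gave -0.37 ± 0.14 (adjusted p = 0.0845), and passed without upACSS2 replicate 3 (-0.51, adjusted p = 0.0464) or vector replicate 3 (-0.47, adjusted p = 0.0374). Dusp8 passed without vector replicate 2 (0.19, adjusted p = 0.0417). The hAD-tau comparison of day 9 vector neurons uses the same 3 vector PBS libraries, so these comparisons are not separate results. Mean Dusp4 was 5.36 log2 CPM in vector PBS, and 5.01, 4.94 and 5.08 in upACSS2 PBS, vector hAD-tau and upACSS2 hAD-tau. Mean Dusp8 was 7.69 in vector PBS, and 7.84, 7.82 and 7.79 in those groups. With hAD-tau on day 9 the virus called 0.692% of genes, and the lowest adjusted p of a member was 0.557. The virus by hAD-tau interaction called 0.663% of genes on day 9 and no gene on day 21 (1215 at an unadjusted p under 0.05, 3 by DESeq2) or in stimulated neurons (2135, and 128 by DESeq2).

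On day 21 with PBS the virus called 0.0137% of genes. Dusp6 measured 5.19, 5.07 and 4.23 log2 CPM with vector and 5.63, 5.64 and 6.06 with upACSS2, with no overlap (0.90 ± 0.24, adjusted p = 0.168). DESeq2 called it (adjusted p = 0.0227) among 374 of 14639 genes. So did edgeR with all 24 unstimulated libraries (adjusted p = 0.0149), a fit that called 1576 of 14863 genes, Dusp14 (-0.49) and Dusp16 (-0.52) among them. With hAD-tau on day 21 0.0273% of genes were called, and Dusp4 stood at 4.95, 3.89 and 5.01 with vector and 5.62, 5.35 and 6.23 with upACSS2 (1.08 ± 0.42, adjusted p = 0.404). In stimulated neurons 0.208% of genes with PBS (0.0937% higher) and 0.937% with hAD-tau were called and no member, with the lowest member adjusted p at 0.278 and 0.158.

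**Figure D3:**
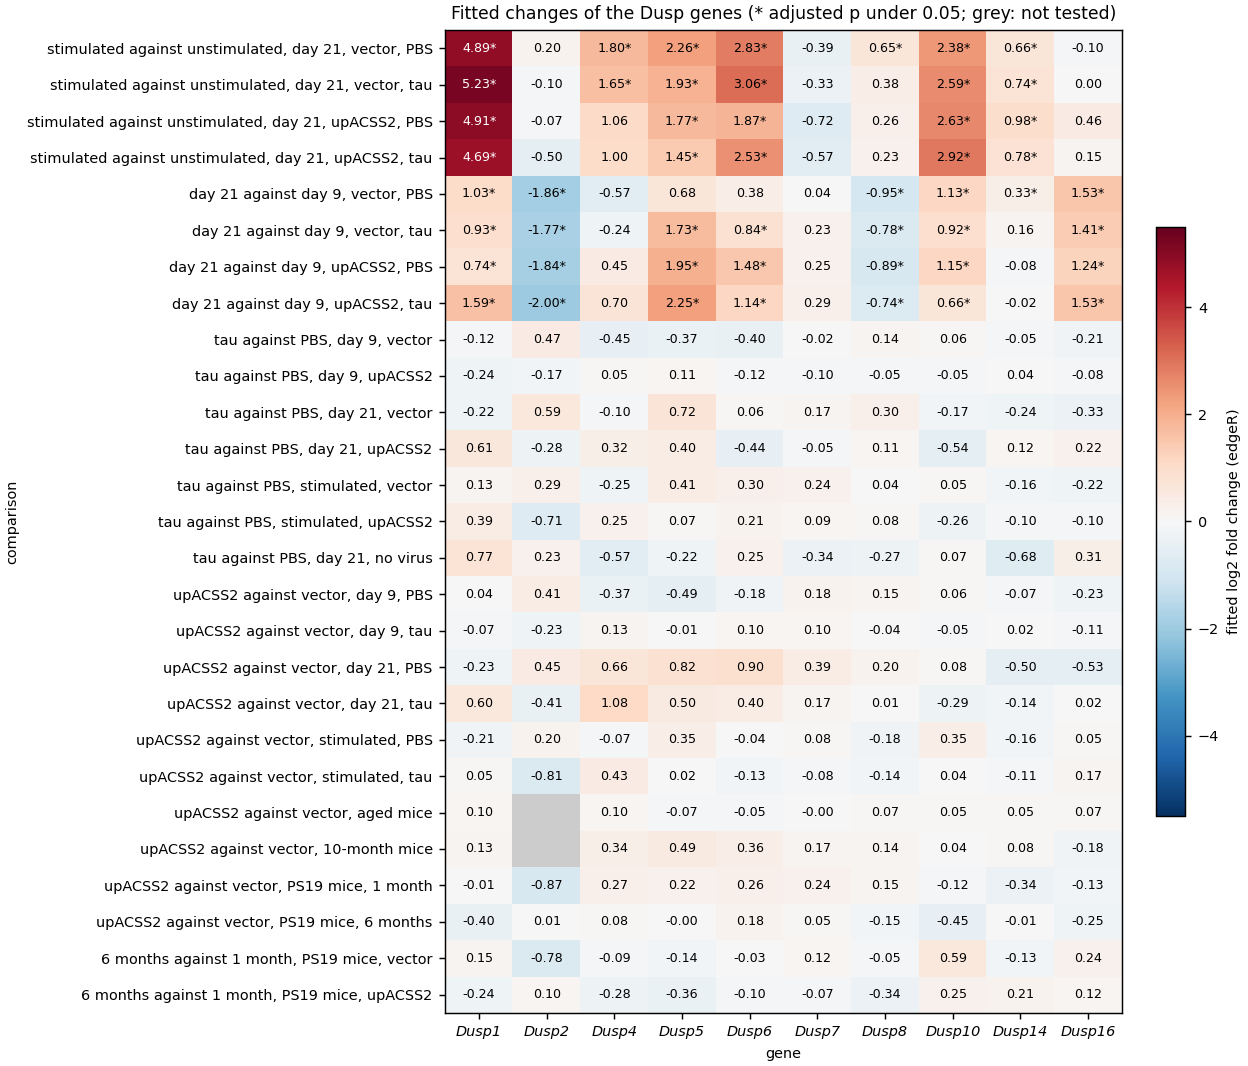
The grid gives the fitted log2 fold change of each Dusp gene (columns) in each 2-group comparison (rows), with colour from lower to higher, grey where the gene was not tested and a star where the edgeR adjusted p is under 0.05. Stars fall only in the stimulation and day 21 against day 9 comparisons, where Dusp1 reaches 5.23.

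In the hippocampus of mice no member passed for the virus or for time. The aged mice had 9 members tested, since Dusp2 was too low, and no gene of 15157 was called by the main edgeR fit (846 at an unadjusted p under 0.05, 1 by DESeq2). An edgeR fit with a term for the set of replicates (1 to 3 or 4 to 12) called 14 of 15157 genes. Replicates 4 to 12 alone gave 6 of 15312, replicates 1 to 3 alone 0 of 15283, and the replicate block 13 of 15157. None of these fits called a member. Dusp1 ran from 4.09 to 5.68 log2 CPM with a median of 4.65 in 12 vector mice, and from 4.21 to 5.74 with a median of 4.74 in 12 upACSS2 mice (0.10 ± 0.17, adjusted p = 0.993). The fitted differences of the 9 members lay between -0.07 and 0.10, and Dusp8 had the narrowest spread, 7.07 to 7.25 with vector and 7.11 to 7.38 with upACSS2 (0.07 ± 0.03, adjusted p = 0.879).

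In 10-month mice 9 members were tested, again without Dusp2. No gene of 13629 was called by edgeR (1204 at an unadjusted p under 0.05, 3 of them members, and 4 genes by DESeq2). Dusp5 ran from 4.13 to 5.13 log2 CPM with a median of 4.51 in 5 vector mice and from 4.72 to 5.52 with a median of 5.09 in 6 upACSS2 mice (0.49 ± 0.17, adjusted p = 0.518). Dusp6 (0.36 ± 0.15, adjusted p = 0.544) and Dusp4 (0.34 ± 0.15, adjusted p = 0.548) had the next largest differences. The groups overlapped for all 3 genes.

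In PS19 mice no gene of 15850 was called for the virus at 1 month (463 at an unadjusted p under 0.05, 1 by DESeq2) or at 6 months (2237, and 135 by DESeq2). DESeq2 called no member in any comparison of mice. Dusp2 gave -0.87 ± 0.37 at 1 month (adjusted p = 0.964) from 3 to 16 counts per library. At 6 months no member had an unadjusted p under 0.05. Between 1 and 6 months 7.46% of genes were called with vector, and no member. Dusp2 (-0.78 ± 0.35, adjusted p = 0.166) and Dusp10 (0.59 ± 0.27, adjusted p = 0.177) had the lowest p among them. With upACSS2 0.0442% of genes were called for time, with Dusp8 at -0.34 ± 0.12 (adjusted p = 0.241). Time and tissue cannot be told apart in that comparison or in the virus by time interaction, which called none (1956 at an unadjusted p under 0.05, 3 by DESeq2).

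**Figure D4:**
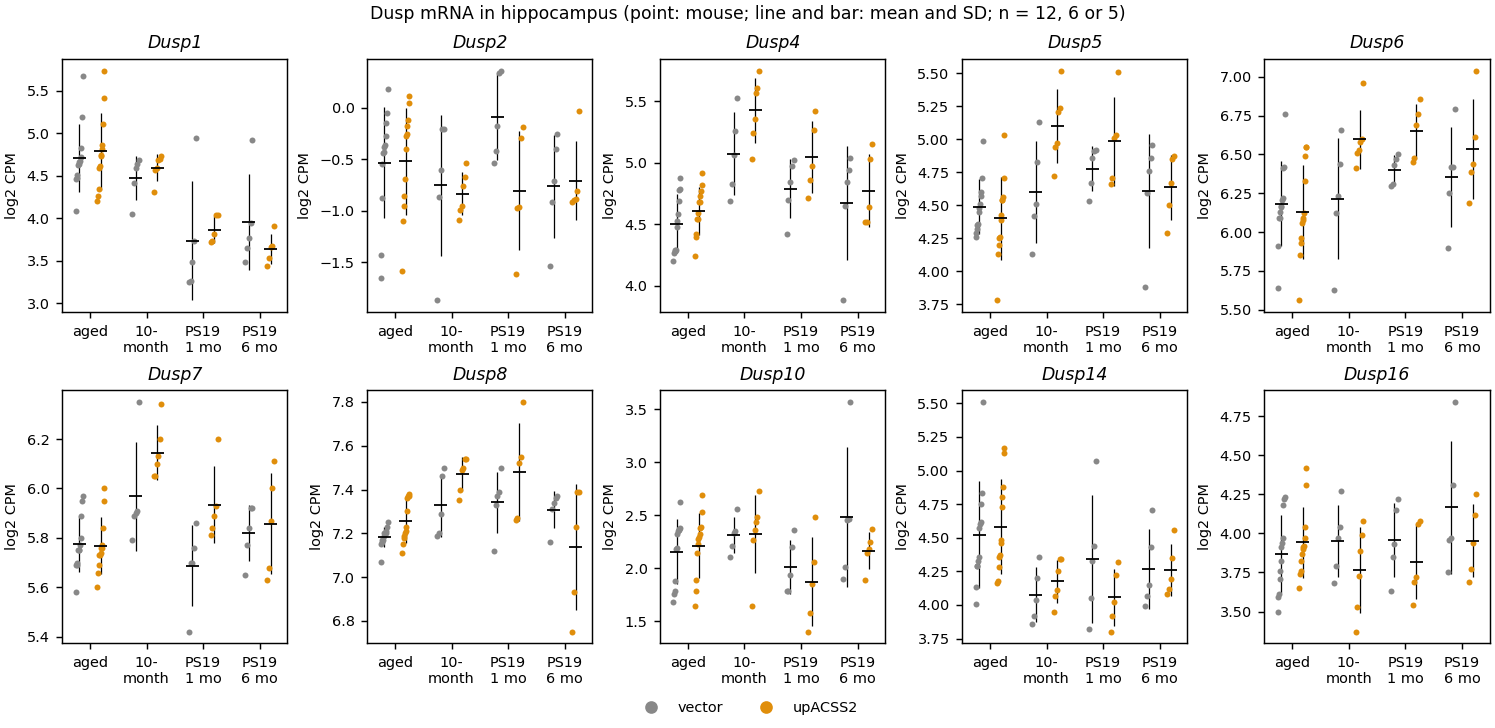
Each panel plots 1 Dusp gene in log2 CPM (y axis) for aged, 10-month and PS19 mice with vector (grey) or upACSS2 (orange); points are mice, lines and bars the mean and SD. The virus groups overlap in every panel, and the 3 tables were scaled separately.

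How the members varied among the 24 aged mice was described by correlation of log2 CPM, centred within virus and within a set of replicates (1 to 3 or 4 to 12, sets that an earlier principal component of these data had separated). Of the 45 pairs of members, 1 passed a permutation test with 100000 permutations after adjustment over the 45. This was Dusp1 with Dusp14 (Pearson r = 0.86, Spearman rho = 0.76, two-sided permutation adjusted p = 0.0018 for both). The r was 0.73 without the 2 mice farthest from the median of Dusp1, 0.97 within replicates 1 to 3 (n = 6) and 0.86 within replicates 4 to 12 (n = 18). The 45 values of r ran from -0.50 to 0.86 with a median of 0.30. Passing pairs among all genes were not counted.

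Egr1, an immediate-early transcription factor gene, was set beside each member in the same mice. How many of all genes would pass with Egr1 was not counted, so the members' count has no background beside it. Of 10 relations 6 passed for Pearson r and 4 of these also for Spearman rho. The 4 were Dusp14 (r = 0.91, rho = 0.78, permutation adjusted p = 0.0002 for r), Dusp1 (r = 0.84, rho = 0.73, adjusted p = 0.0003), Dusp6 (r = 0.71, rho = 0.61, adjusted p = 0.00157) and Dusp8 (r = 0.52, rho = 0.55, adjusted p = 0.0368). Dusp16 (r = 0.60) and Dusp10 (r = 0.47) passed for Pearson r only. Dusp2 (r = 0.16), Dusp4 (r = -0.24, adjusted p = 0.33), Dusp5 (r = 0.24, adjusted p = 0.308) and Dusp7 (r = 0.38) did not pass. Within replicates 4 to 12 (n = 18) r was 0.93 for Dusp14, 0.92 for Dusp1 and 0.84 for Dusp6, and within replicates 1 to 3 (n = 6) it was 0.65, 0.45 and 0.39.

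Much of this rested on the few mice with the highest Egr1. Without the 2 mice farthest from the Egr1 median, r was 0.82 for Dusp14, 0.68 for Dusp1 and 0.54 for Dusp6. Without the 3 mice highest in Egr1, a step added after the values were seen, Dusp14 was the 1 member that still passed for Pearson r (0.69, rho = 0.67, permutation adjusted p = 0.0188, n = 21). Dusp1 then had r = 0.50 (adjusted p = 0.0963) and rho = 0.58 (adjusted p = 0.0454), and Dusp6 r = 0.41 (adjusted p = 0.164).

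**Figure D5:**
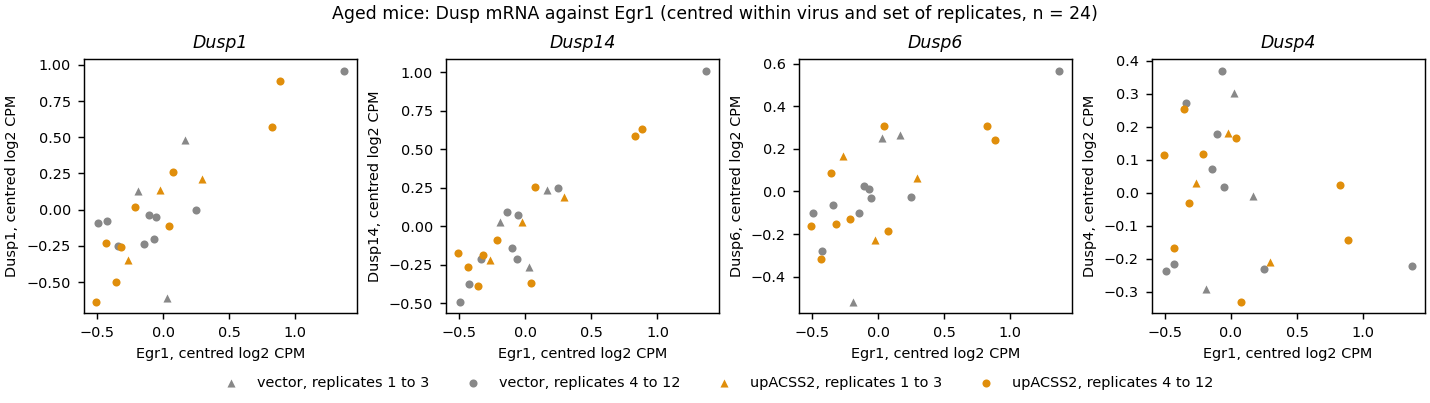
Each panel plots the centred log2 CPM of Dusp1, Dusp14, Dusp6 or Dusp4 (y axis) against that of Egr1 (x axis) in the 24 aged mice, coloured by virus with the set of replicates as the marker. Dusp1 and Dusp14 are highest in the 3 mice at the right, and r over all mice is 0.84 for Dusp1, 0.91 for Dusp14, 0.71 for Dusp6 and -0.24 for Dusp4.

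The genes most like 4 of the members over these mice were taken from 12366 genes by Pearson r, as a description. For Dusp1 they were Fos (0.93), the immediate-early transcription factor gene, Ppme1 (0.91) and Igfbp6 (0.90). For Dusp6 they were Fhl2 (0.89), Egr3 (0.88), another immediate-early transcription factor gene, and Dnajc21 (0.84). For Dusp4 they were Epha7 (0.91), an ephrin receptor gene, Camkk1 (0.87) and Kcns2 (0.87), and for Dusp5 they were Igfbp4 (0.78), Reps1 (0.77) and Erich1 (0.73).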

How the data were processed

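The authors deposited raw counts of reads per gene in 6 tables, which per the labels hold unstimulated neurons, stimulated neurons, neurons without virus, aged mice, 10-month mice and PS19 mice. The submitters' processing notes name STAR, featureCounts, HTSeq, DESeq2 and the mouse build mm10, with no role or version used here. RNA was total RNA from Trizol and RNeasy columns, made into libraries with an NEB kit, per the labels' protocols. Rows that name no gene in the table without virus (6.13% to 8.74% of counts) were left out of totals and tests.

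From these counts, 33 comparisons were fitted with edgeR 4.0.16 in R 4.3.3 (TMM scaling, filterByExpr by group, quasi-likelihood F test, two-sided, Benjamini-Hochberg adjustment over all genes tested at 0.05), 1 fit for each day or table, and 1 over the stimulated and unstimulated day 21 libraries joined by 25239 symbols. Changes given with an SE are log2 fold changes, and SE is the size of the change divided by the root of F. Levels are log2 CPM with a prior count of 2. Virus neurons were scaled together and every other table on its own. Levels per kilobase use the exon length of GENCODE M21 on GRCm38. Fits were tested on simulated data in which every gene had the common spread of its fit. Only genes above a low level were changed, and only the first comparison of each fit was tested. There 79% to 100% of genes changed 2-fold were recovered, except 28% in the culture without virus. These shares do not cover genes with a wider spread or a lower level. Recovery was not tested for each member.

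The rule names all 10 members in every comparison. Their fold changes in all 2-group comparisons stand in the grid of fitted changes, and for virus, hAD-tau and mice the text gives a selection with low p, made with the values known. From other lists up to 4 called genes with the largest fold change are named, and for Dusp1, Dusp4, Dusp5 and Dusp6 the 3 genes with the highest r. The members, lists and tests were chosen with earlier results of these data known. Same-numbered replicates deviated together (every r above 0.1) for upACSS2 against vector in stimulated hAD-tau neurons (0.112 to 0.364), hAD-tau against PBS in stimulated vector neurons (0.126 to 0.329), stimulation in upACSS2 PBS neurons (0.377 to 0.583) and hAD-tau in the culture without virus (0.220 to 0.394). Each comparison was also fitted without the filter, with RLE size factors, with DESeq2 1.42.0 and with a replicate block. Where the fit held further groups, it was repeated on only the groups compared. Virus and hAD-tau comparisons on days 9 and 21 were also fitted with all 24 unstimulated libraries, and those in stimulated neurons with the 24 day 21 libraries of both tables. Each replicate was left out in turn, except in aged mice, where only vector replicate 1 was. Aged mice were also fitted with a term for the set of replicates and with each set alone.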

Additional observations from a re-analysis of the deposited data

Results flagged for a closer look

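In 6 of 70 checks, 1 library stood apart from the rest of its group of 4 to 10 by more than Dixon's 95% limit. Chance flags about 1 in 20 such groups, which is 3.5 of 70. Dusp1 was 4.95 log2 CPM in PS19 vector mouse 4 at 1 month, beside 3.25 to 3.74 in the other 4 mice. Dusp2 was -0.03 in PS19 upACSS2 mouse 3 at 6 months, beside -0.91 to -0.81. Dusp6 was 6.96 in 10-month upACSS2 mouse 5, beside 6.41 to 6.60, and 6.27 in hAD-tau replicate 3 of the culture without virus, beside 5.48 to 5.61. Dusp7 was 6.35 in 10-month vector mouse 5, beside 5.79 to 5.91. Dusp8 was 7.16 in PS19 vector mouse 2 at 6 months, the lowest of its group, beside 7.31 to 7.37.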

How the results depend on the processing

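Per gene, 4584 values under the alternatives kept direction and side of the threshold, 31 newly passed, 37 no longer passed and none of the called values reversed; 171 of 3561 uncalled values changed sign. Counts of called members moved in a few comparisons, and the cause was not tested. With no filter on low counts they were 2 for the virus on day 9 in PBS, 3 for hAD-tau on day 9 with vector and 1 for their interaction, where 1898, 1153 and 794 of all 20654 genes were called; all 3 counts were 0 in the fits reported. DESeq2 called 1 member for the virus on day 21 in PBS and 1 for hAD-tau in stimulated upACSS2 neurons, and all 24 unstimulated libraries gave 3 for the former, with 1576 of 14863 genes called. Fitting only the groups compared left 4 of 7 called for stimulation in vector PBS neurons, with 187 of 14564 genes called. It was not run for aged mice, 10-month mice and the culture without virus, whose fits hold only the groups compared. Leaving out 1 replicate gave 0 to 1 for the virus on day 9 in PBS, 0 to 3 for hAD-tau on day 9 with vector and 0 to 1 for their interaction.

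The replicate block changed 2 counts from 0 to 1, for hAD-tau on day 9 with vector (Dusp6, -0.40, adjusted p = 0.0451) and for hAD-tau in stimulated upACSS2 neurons (Dusp1, 0.39, adjusted p = 0.0352), and the numbers pair the libraries in neither. It called 7 members for stimulation in upACSS2 PBS neurons, against 5, and 5 for day 21 against day 9 in vector PBS neurons, against 6 (Dusp14). Among the comparisons whose numbers pair the libraries it changed no other call. Centring aged mice within virus only gave 2 passing pairs instead of 1, and leaving out the 3 mice highest in Egr1 left 1 relation with Egr1 instead of 6.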
